A study of Mus musculus with 58 samples.

Results

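Ribosome-bound mRNA of 10 genes of the amino acid response and of serine synthesis was followed across brown, beige and white fat cells of mice. The genes are Atf4, Atf5, Asns, Trib3, Chac1, Phgdh, Psat1, Psph, Shmt2 and Mthfd2, taken by symbol from the deposited expression table. Of the 10, 9 had a row among the 11603 rows of the table, and Chac1 was not analysed here. The submitters worked with NuTRAP mice, whose ribosomes are tagged with GFP wherever Cre is active, and pulled the tagged ribosomes out of homogenised fat with an antibody against GFP (translating ribosome affinity purification). The labels name lines in which the Ucp1 or the Adipoq gene drives Cre, without saying which line gave which library. All mice were of the C57BL/6J strain and ate a standard chow. Cold brown libraries (n = 5) came from interscapular brown fat and cold beige libraries (n = 4) from inguinal white fat, after 1 week at 4 °C. Warm brown (n = 5) and warm beige (n = 3) libraries came from the same depots of mice that spent 4 weeks at 30 °C after the cold. Warm white libraries (n = 5) are inguinal too, from animals that lived at 30 °C from birth. The sample descriptions of these 5 libraries read rewarm where the deposited columns read warm, and they were matched by title and library number.

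Levels are log2 CPM, counts scaled to a common total by the submitters and given as logarithms to base 2, so a difference of 1 is a doubling. CPM is not corrected for transcript length, so levels are compared between groups and never between genes. Adjusted p-values are from limma's two-sided test over all 11603 rows, and a gene is said to rise, fall or differ where that p is under 0.05. The depth of the libraries is unknown. The labels call the libraries biological replicates but do not tie them to animals, so p-values measure the spread between these libraries. The values carry the trace of a batch correction, described below. That spread is therefore what was left after it, and the fit held no term for the batch. In bulk samples such as these, fewer cells of a type and less RNA per cell cannot be told apart.

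The adipocyte markers Adipoq and Plin1 were high in every library, with Adipoq at 8.06 to 10.22 log2 CPM. Ucp1, the uncoupling protein of thermogenic fat cells, lay between 11.16 and 12.49 in the cold groups, between 8.37 and 9.20 in warm brown, between 0.38 and 1.53 in warm beige and between -5.59 and -1.11 in warm white. Markers of other cells were present too. The summed level of 9 fibroblast and preadipocyte genes ran from 32.7 to 67.0 CPM in cold brown, 124 to 252 in warm brown, 763 to 1131 in cold beige, 2697 to 5460 in warm beige and 3937 to 5198 in warm white. The summed level of 9 endothelial genes was 53.9 to 180 CPM in cold brown, 123 to 212 in warm brown, 158 to 335 in cold beige, 510 to 815 in warm beige and 50.7 to 76.2 in warm white. Within cold brown, replicates 1 and 5 held 180 and 170 CPM of the endothelial genes, and the other 3 libraries held 53.9 to 58.1. No gene of these lists was at the floor of the table in every library of a group. The deposited values also carry the trace of a batch correction that splits the libraries into a batch of 10 and a batch of 12. The smaller batch holds replicates 1 and 2 of each brown group and replicates 1 and 4 of cold beige. It also holds replicates 1, 2 and 5 of warm white, but of warm beige only replicate 3. Its values for warm beige and for the effect of warming in beige therefore rest on 1 warm beige library. Values within each batch are given below where they end a call, turn its direction or move a value widely. The labels name no batch.

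When amino acids run short or unfolded proteins or damaged mitochondria stress a cell, kinases phosphorylate the translation factor eIF2. Most translation then slows, while the mRNA of the transcription factor ATF4 is translated better. ATF4 and its relative ATF5, whose mRNA is controlled in a like way, switch on genes for amino acid uptake and synthesis. Asns makes asparagine from aspartate. Phgdh, Psat1 and Psph are the enzymes that turn the glycolytic intermediate 3-phosphoglycerate into serine, in that order. Shmt2 and Mthfd2 are mitochondrial enzymes that pass the carbon of serine to folate. Trib3 is a pseudokinase that restrains ATF4, and Chac1 degrades glutathione. In muscle and fat, ATF4 targets are known to respond to mitochondrial stress.

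RefSeq promoters (GRCm38.p6, 250 bases before to 50 after each start) were matched for all 10 genes, with 12 promoters between them. The letters TGATGNAA were searched on both strands for the C/EBP-ATF composite element, which ATF4 and C/EBP proteins bind. A match was found in 3 of the 12 promoters, those of Asns, Trib3 and Chac1. Of 32851 RefSeq promoters of the same length 3.97% held one. The cAMP response element TGACGTCA was in none of the 12 promoters and in 1.79% of all promoters. The next lines show, 5′ to 3′ on the coding strand, the 250 bases before the start of Asns (chr6:7693210-7693459, minus strand), which hold a match 23 bases before the start, and 30 bases of Trib3 (chr2:152344028-152344057, minus strand), where the match is on the opposite strand, 15 bases past the start. Below them are the 250 bases before Phgdh (chr3:98339970-98340219, minus strand) and Psat1 (chr19:15925060-15925309, minus strand), which stand here because these genes spanned the widest range of levels. Capitals mark the match.
Asns: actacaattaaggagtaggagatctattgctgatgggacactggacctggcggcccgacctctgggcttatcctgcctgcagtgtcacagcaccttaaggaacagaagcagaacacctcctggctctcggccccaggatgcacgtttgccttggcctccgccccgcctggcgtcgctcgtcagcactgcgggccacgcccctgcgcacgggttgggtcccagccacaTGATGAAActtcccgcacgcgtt
Trib3: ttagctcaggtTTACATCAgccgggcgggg
Phgdh: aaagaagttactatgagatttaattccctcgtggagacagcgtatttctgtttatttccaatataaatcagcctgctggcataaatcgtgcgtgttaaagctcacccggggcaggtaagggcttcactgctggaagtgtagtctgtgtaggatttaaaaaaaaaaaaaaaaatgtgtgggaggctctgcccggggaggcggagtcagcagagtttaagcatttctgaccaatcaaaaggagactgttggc
Psat1: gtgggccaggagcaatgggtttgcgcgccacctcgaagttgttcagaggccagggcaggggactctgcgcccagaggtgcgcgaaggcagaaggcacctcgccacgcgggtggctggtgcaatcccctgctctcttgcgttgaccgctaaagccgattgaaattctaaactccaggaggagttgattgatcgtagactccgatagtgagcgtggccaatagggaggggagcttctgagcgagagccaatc
The Phgdh and Psat1 windows hold no match and so no capitals. The Phgdh window was the poorer in G and C, at 44% against 59.6% for Psat1 and 61.6% for Asns. A match is a run of letters and not a measured binding site, and its absence says nothing about the factor.

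Warming moved most of the genes down in both depots, while Phgdh rose in both. In beige cells 8 of the 9 genes changed (2 higher, 6 lower), where 72.9% of all rows were called (36.0% higher, 36.9% lower). In brown cells 7 of the 9 changed (2 higher, 5 lower), where 71.3% of all rows were called (41.2% higher, 30.1% lower). The share of genes that changed was thus close to that of all rows, and the median change of the 9 genes was -0.71 in beige and -0.92 in brown cells, against 0.03 and 0.13 over all rows. The groups did not overlap for 8 of the 9 genes in beige (66.4% of all rows) and for 7 in brown (63.0% of all rows). Without cold brown replicates 1 and 5 the brown count was 8, with Psat1 added. All 8 and all 7 called genes had the same direction within each batch, and all remained called within the larger. In brown 6 of the 7 remained called within the smaller batch, which holds 1 warm beige library and so tests the beige changes poorly.

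**Figure D1:**
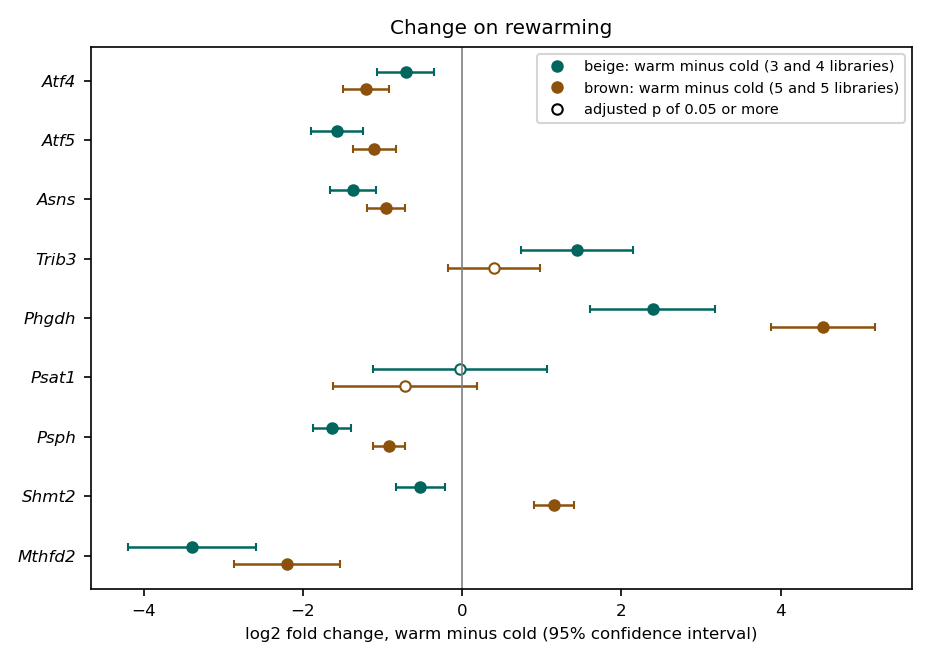
Change on rewarming for the 9 genes: the x axis is the log2 fold change, warm minus cold, and each point is the limma estimate with its 95% confidence interval, in teal for beige and in brown for brown cells; open points have an adjusted p of 0.05 or more. Atf4, Atf5, Asns, Psph and Mthfd2 lie left of 0 in both depots, Phgdh lies right of 0 in both, and Shmt2 lies on opposite sides.

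The ribosome-bound mRNA of both transcription factors fell on warming, while the proteins and their activity were not measured. Atf4 (chr15:80255184-80257545) stood at 7.20, 7.22, 7.54, 7.78 and 7.55 log2 CPM in cold brown replicates 1 to 5 and at 6.17, 6.26, 6.55, 6.01 and 6.26 in warm brown. It stood at 7.79, 7.84, 7.31 and 7.31 in cold beige, at 6.84, 6.63 and 7.08 in warm beige, and at 7.04, 7.28, 7.13, 6.85 and 7.55 in warm white. Every warm brown library was below every library of the other groups, and the warm white libraries overlapped both beige groups. Atf4 fell by 1.21 ± 0.14 (SE) log2 units in brown (adjusted p = 9.43e-08) and by 0.71 ± 0.17 in beige (adjusted p = 0.000777). Within the smaller batch, with 1 warm beige library, the beige change was -0.47. In the order cold beige, cold brown, warm white and warm beige, neighbours did not pass the test (adjusted p from 0.0623 to 0.562), and warm brown was below warm beige by 0.60 ± 0.16 (adjusted p = 0.00217).

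Atf5 (chr7:44812256-44816658) had 7.64, 7.60, 7.86, 7.85 and 7.62 log2 CPM in cold brown and 6.79, 6.39, 6.75, 6.57 and 6.55 in warm brown. It had 8.42, 8.61, 8.06 and 7.87 in cold beige, 6.51, 6.89 and 6.60 in warm beige, and 7.53, 7.70, 7.44, 7.06 and 7.73 in warm white. All cold beige libraries were above all others, and the warm brown and warm beige libraries mingled at the bottom. The fall on warming was 1.57 ± 0.16 in beige, a 2.98-fold decrease (adjusted p = 8.19e-09), and in brown Atf5 fell by 1.10 ± 0.13 (adjusted p = 1.22e-07). Cold beige was above cold brown by 0.53 ± 0.14 (adjusted p = 0.00248), though within the smaller batch that difference had an adjusted p of 0.0588. Warm beige was below warm white, by 0.83 ± 0.15 (adjusted p = 0.000170), and its difference from warm brown was 0.06 (95% confidence interval -0.26 to 0.37).

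**Figure D2:**
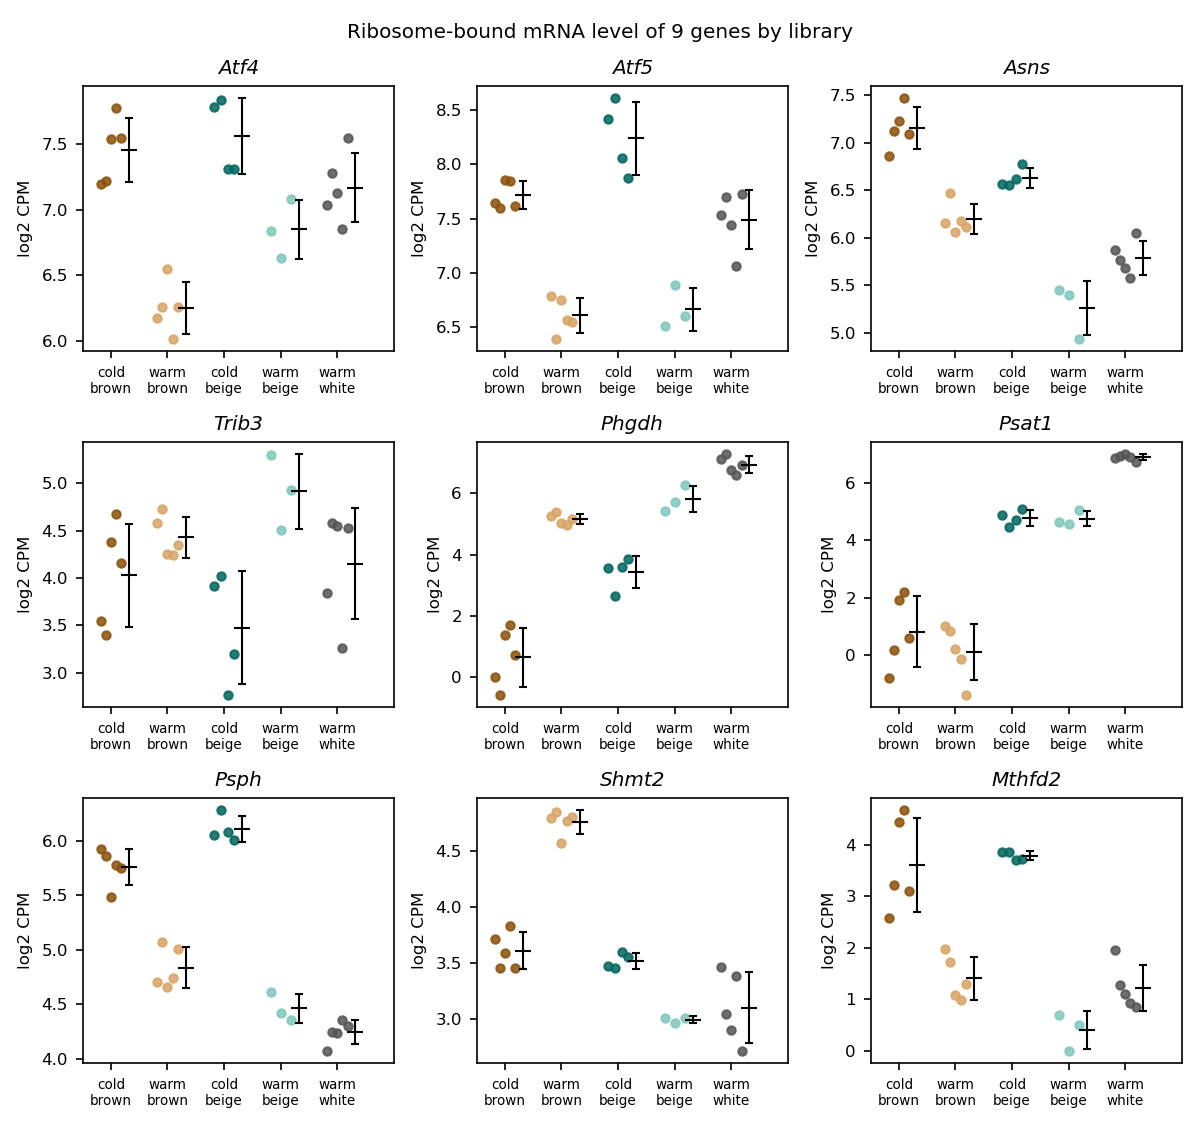
Level of the 9 genes in each of the 22 libraries: 1 panel a gene, the y axis is log2 CPM (a log scale that differs between panels), points are libraries in the order of their replicate numbers, and bars are the group mean ± SD. Phgdh and Psat1 cover more than 6 log2 units, Psat1 parts brown, beige and white libraries, and Trib3 overlaps between most groups.

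Asns (chr6:7675165-7693209), the asparagine synthetase, was the gene whose 5 group means all differed from their neighbours in order. Cold brown held 6.86, 7.12, 7.23, 7.47 and 7.09 log2 CPM, cold beige 6.57, 6.55, 6.62 and 6.78, and warm brown 6.15, 6.47, 6.06, 6.18 and 6.11. Warm white held 5.87, 5.76, 5.68, 5.57 and 6.05, and warm beige 5.45, 5.40 and 4.93. Each of these groups lay below the one before it with no overlap. The steps in that order were 0.52 ± 0.12 (SE; adjusted p = 0.000738), 0.44 ± 0.12 (adjusted p = 0.00307), 0.41 ± 0.11 (adjusted p = 0.00248) and 0.53 ± 0.13 (adjusted p = 0.00294). Within single batches the first step gave an adjusted p of 0.157 in the smaller batch and the last one 0.195 in the larger. On warming Asns fell by 1.37 ± 0.14 in beige, a 2.58-fold decrease (adjusted p = 7.53e-09), and by 0.96 ± 0.11 in brown (adjusted p = 1.15e-07).

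Trib3 (chr2:152337425-152344060), the pseudokinase, rose in beige, where Atf4 fell. It was at 3.91, 4.02, 2.76 and 3.20 log2 CPM in cold beige and at 5.30, 4.51 and 4.93 in warm beige. In brown it was at 3.54, 3.40, 4.38, 4.67 and 4.16 in the cold and at 4.58, 4.73, 4.25, 4.24 and 4.35 when warm, and in warm white at 3.84, 4.58, 4.55, 3.26 and 4.53. All 3 warm beige libraries were above all 4 cold beige ones, while the brown groups overlapped. It rose by 1.44 ± 0.34 in beige, 2.71-fold (adjusted p = 0.000620), and its change in brown was 0.40 ± 0.28 (adjusted p = 0.204). The brown change was 1.19 ± 0.29 within the smaller batch (adjusted p = 0.00973) and -0.12 ± 0.35 within the larger (adjusted p = 0.770). In order, warm beige, warm brown, warm white, cold brown and cold beige, no neighbours passed the test (adjusted p from 0.107 to 0.686).

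The 3 enzymes of serine synthesis went different ways. Phgdh (chr3:98313171-98339969), which catalyses the first step, was at -0.02, -0.61, 1.37, 1.69 and 0.72 log2 CPM in cold brown and at 5.27, 5.39, 5.04, 4.97 and 5.15 in warm brown. It was at 3.56, 2.65, 3.60 and 3.85 in cold beige, at 5.43, 5.72 and 6.27 in warm beige, and at 7.14, 7.29, 6.76, 6.62 and 6.92 in warm white. Cold brown was lowest and warm white highest without overlap, and all warm libraries were above all cold ones. The rise on warming was 4.53 ± 0.31 in brown, 23.2-fold (adjusted p = 1.84e-11), and 2.39 ± 0.38 in beige, 5.25-fold (adjusted p = 6.58e-06). The brown rise was 5.65 within the smaller batch and 3.79 within the larger, and it was 2.60 with 5 CPM added to every value before the logarithm, which damps low levels. In order, warm white was above warm beige, the step from warm beige to warm brown did not pass (0.64 ± 0.36, adjusted p = 0.111, though 0.00433 with only the groups compared in the fit), and warm brown was above cold beige, which was above cold brown by 2.79 ± 0.33 (adjusted p = 2.89e-07). This last step was 4.02 within the smaller batch, 1.87 within the larger and 1.23 with 5 CPM added. Warm beige was below warm white by 1.14 ± 0.36 (adjusted p = 0.0154), a call lost without warm beige replicate 1 (-0.95, adjusted p = 0.0765) or 2 (-1.10, adjusted p = 0.0519). Within the smaller batch, with 1 warm beige library, the difference was -0.85.

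On warming the fibroblast and preadipocyte markers rose, as Phgdh did, but across the groups they did not follow it throughout. Of these 9 genes 7 rose in beige and 8 in brown, and none fell. Of all rows 36.0% rose in beige and 41.2% in brown. The summed level of the markers, given above, was lowest in cold brown and highest in the warm inguinal groups. It was 124 to 252 CPM in warm brown and 763 to 1131 in cold beige, while Phgdh was higher in warm brown. It overlapped between warm beige and warm white, and Phgdh did not. Of the 9 endothelial genes, 7 rose in beige and 3 in brown. Of 6 skeletal muscle genes, all 6 rose in beige, from a summed 1.82 to 16.6 CPM in cold beige to 16.5 to 183 in warm beige, and none rose in brown. Of 7 macrophage genes 2 rose in each depot, and of 5 mural genes 2 rose and 1 fell in beige and 1 rose in brown. The part of these cells in the changes of Phgdh and the other genes was not tested. Of 10732 rows searched, those with the pattern over the 5 group means most like that of Phgdh were Adamts2, a procollagen protease (root mean square difference 0.23 log2 units), Bmp3, a bone morphogenetic protein (0.23), and Egflam, a matrix protein (0.31).

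Psat1 (chr19:15905123-15925059), the transaminase of the second step, parted the cell types. In cold brown it was at -0.79, 0.20, 1.92, 2.22 and 0.60 log2 CPM and in warm brown at 1.02, 0.85, 0.22, -0.13 and -1.39. In cold beige it was at 4.89, 4.46, 4.70 and 5.11, in warm beige at 4.66, 4.57 and 5.06, and in warm white at 6.89, 6.95, 7.01, 6.91 and 6.75. No brown library was above 2.22, the 7 beige libraries lay within 4.46 to 5.11, and the white ones were above both without overlap. Cold beige was above cold brown by 3.96 ± 0.46 (15.6-fold, adjusted p = 2.29e-07), and warm beige was above warm brown by 4.65 ± 0.50 (25.1-fold, adjusted p = 2.61e-08). Warm white was above warm beige by 2.14 ± 0.50 (adjusted p = 0.00182) and above cold beige by 2.11 ± 0.46 (adjusted p = 0.000283). The folds against brown rest on brown levels of a few CPM or less. The cold difference was 5.29 within the smaller batch and 3.00 within the larger, and with 5 CPM added the cold and warm differences were 2.19 and 2.37. The change on warming in beige was -0.03, with a 95% confidence interval from -1.12 to 1.07 (adjusted p = 0.966).

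In brown cells the change of Psat1 on warming was -0.72 ± 0.44 (adjusted p = 0.147), and it had opposite signs in the batches. It was 1.23 ± 0.29 within the smaller batch (adjusted p = 0.00791) and -2.01 ± 0.42 within the larger (adjusted p = 0.00110). Without cold brown replicate 1 the change was -1.12 (adjusted p = 0.0148), and without cold brown replicates 1 and 5, which had the high endothelial markers, it was -1.33 (adjusted p = 0.00815). The 2 brown groups overlapped, and no direction is given for them. Psat1 had less similar neighbours than Phgdh: Mfng, a glycosyltransferase acting on Notch (root mean square difference 0.44 log2 units), Adamts12, a matrix protease (0.50), and Alcam, an adhesion molecule (0.55).

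Psph (chr5:129765558-129787443), the phosphatase of the last step, behaved unlike Phgdh and like Asns. It had 5.92, 5.86, 5.48, 5.78 and 5.75 log2 CPM in cold brown and 4.70, 5.07, 4.66, 4.74 and 5.01 in warm brown. It had 6.05, 6.28, 6.08 and 6.01 in cold beige, 4.61, 4.42 and 4.36 in warm beige, and 4.07, 4.25, 4.24, 4.36 and 4.30 in warm white. All 9 cold libraries were above all 13 warm ones. Psph fell by 1.64 ± 0.12 in beige, a 3.12-fold decrease (adjusted p = 1.93e-11), and by 0.92 ± 0.10 in brown (adjusted p = 1.39e-08). The step from warm beige to warm white did not pass (0.22 ± 0.11, adjusted p = 0.120), and cold beige was above cold brown by 0.35 ± 0.10 (adjusted p = 0.00524), which was 0.14 within the smaller batch (adjusted p = 0.522). Among the 9 genes, the root mean square difference of the group patterns was smallest for Atf4 and Atf5 (0.28 log2 units), followed by Asns and Psph (0.39).

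The mitochondrial enzymes of one-carbon metabolism also parted. Mthfd2 (chr6:83305704-83326011), which oxidises methylene-tetrahydrofolate, had 2.59, 3.22, 4.45, 4.68 and 3.11 log2 CPM in cold brown and 1.97, 1.72, 1.08, 0.98 and 1.29 in warm brown. It had 3.87, 3.87, 3.71 and 3.72 in cold beige, 0.70, -0.01 and 0.51 in warm beige, and 1.95, 1.27, 1.11, 0.92 and 0.85 in warm white. Every cold library was above every warm one, and the warm beige libraries were the lowest. It fell by 3.39 ± 0.39 in beige, a 10.5-fold decrease (adjusted p = 5.76e-08), and by 2.20 ± 0.32 in brown, a 4.60-fold decrease (adjusted p = 2.23e-06). With 5 CPM added the beige change was -1.57. In brown the change was -1.06 within the smaller batch (adjusted p = 0.0547) and -2.96 within the larger. Cold beige and cold brown were not told apart (0.18, 95% confidence interval -0.52 to 0.89), and warm white, between warm brown and warm beige, passed the test against neither (adjusted p = 0.599 and 0.0830). With quantile normalization warm beige differed from warm white by -1.62 (adjusted p = 0.000836). The rows with the nearest pattern were Fdps, an enzyme of cholesterol synthesis (root mean square difference 0.19 log2 units), 1700086O06Rik (0.23) and Paqr9, a membrane receptor (0.27).

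Shmt2 (chr10:127517123-127522444), which splits serine into glycine and a folate-bound carbon, changed in opposite directions. It had 3.71, 3.45, 3.59, 3.83 and 3.45 log2 CPM in cold brown and 4.79, 4.85, 4.57, 4.77 and 4.80 in warm brown. It had 3.47, 3.45, 3.60 and 3.55 in cold beige, 3.01, 2.96 and 3.01 in warm beige, and 3.46, 3.04, 2.90, 3.38 and 2.71 in warm white. Warm brown stood above all other groups, and warm beige below both cold groups. Shmt2 rose by 1.15 ± 0.12 in brown, 2.22-fold (adjusted p = 2.07e-08), and fell by 0.52 ± 0.15 in beige (adjusted p = 0.00310). The beige fall was not called when library totals were computed without the 20 most abundant genes (-0.30, adjusted p = 0.0950). Within the smaller batch, with 1 warm beige library, it was -0.50.

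The effect of warming itself was compared between the depots. It differed for 3 of the 9 genes, all lower in beige than in brown, where 47.2% of all rows differed (14.8% higher, 32.4% lower). The difference was -1.67 ± 0.19 for Shmt2 (adjusted p = 2.63e-07), -0.72 ± 0.15 for Psph (adjusted p = 0.000408) and -2.14 ± 0.49 for Phgdh (adjusted p = 0.00102). For Shmt2 the signs were opposite, for Psph the fall was larger in beige, and for Phgdh the rise was larger in brown. Within the smaller batch, with 1 warm beige library, the Psph difference was -0.67. All 3 were called within the larger batch. The Phgdh difference was -3.08 within the smaller batch, -1.34 within the larger and -0.65 with 5 CPM added.

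For the other 6 genes the difference between depots did not pass, and 5 of them lay near the threshold. Values were 0.50 ± 0.22 for Atf4 (adjusted p = 0.0710), -0.47 ± 0.21 for Atf5 (adjusted p = 0.0657) and -0.41 ± 0.18 for Asns (adjusted p = 0.0635). They were 1.04 ± 0.44 for Trib3 (adjusted p = 0.0551) and -1.19 ± 0.50 for Mthfd2 (adjusted p = 0.0556), while Psat1 had 0.69 ± 0.69 (adjusted p = 0.431). The batches gave unlike values for 4 of these genes, though the smaller holds 1 warm beige library. The Psat1 difference was -1.17 within the smaller batch and 2.05 within the larger (adjusted p = 0.0270). For Asns it was -1.07 and -0.01 (adjusted p = 0.950), in the same order. For Mthfd2 it was -2.23 and -0.48 (adjusted p = 0.513), and for Trib3 0.19 and 1.64 (adjusted p = 0.0315). Quantile normalization gave -2.01 for Mthfd2 (adjusted p = 0.00129). Leaving out a single library brought some of them under 0.05, and the count of 3 became 5 without cold brown 1, 2 or 4 or cold beige 1 or 2, and 7 without warm beige 2. For Atf4 these libraries were cold brown 1 or 2, warm brown 3, cold beige 1 or 2 and warm beige 2 (differences from 0.56 to 0.61, adjusted p from 0.0383 to 0.0491). Atf5 was called without warm brown 2, cold beige 4 or warm beige 2 (from -0.52 to -0.59, adjusted p from 0.0180 to 0.0463), and Asns without cold brown 4, warm beige 1 or warm beige 2 (from -0.48 to -0.51, adjusted p from 0.0237 to 0.0496). Trib3 was called without cold brown 1 or 2, cold beige 1 or 2 or warm beige 2 (from 1.16 to 1.24, adjusted p from 0.0280 to 0.0379), and Mthfd2 without cold brown 3 or 4 or warm brown 4 (from -1.30 to -1.46, adjusted p from 0.0129 to 0.0461).

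Comparisons with warm white, which share the white libraries, set the beige and brown cells beside fat that had never been cold. Other things differ as well: the temperature at sampling for cold beige and the depot for warm brown. The Cre line may differ too, since the labels do not tie it to libraries. These parts cannot be told apart from the history of cold. Warm beige differed from warm white in 4 of the 9 genes, all lower in beige, where 39.4% of all rows differed (17.0% higher, 22.4% lower). That balance depends on the scaling: 43.1% of the calls over all rows were higher, and 61.0% when library totals left out the 20 most abundant genes. They were Psat1, Phgdh, Atf5 and Asns, with the values given above. The other 5, among them Trib3 at 0.76 ± 0.32 (adjusted p = 0.0650), did not pass. Trib3 was called without warm beige replicate 2 (0.96, adjusted p = 0.0492) or warm white replicate 2 (0.87, adjusted p = 0.0460). It was also called with quantile normalization (0.84, adjusted p = 0.0400) and with 5 CPM added (0.61, adjusted p = 0.0431). When totals left out the 20 most abundant genes, Trib3 (0.86, adjusted p = 0.0345) and Psph (0.32, adjusted p = 0.0202) were called higher in warm beige.

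Cold beige differed from warm white in all 9 genes (6 higher, 3 lower), where 75.2% of all rows differed (38.0% higher, 37.2% lower). Mthfd2 was 5.95-fold higher in cold beige (2.57 ± 0.34, adjusted p = 4.18e-07), Psph was 3.63-fold higher (1.86 ± 0.10), and Phgdh was 11.6-fold lower (-3.53 ± 0.33). The calls for Atf4 (0.39 ± 0.15, adjusted p = 0.0220) and Trib3 (-0.68 ± 0.30, adjusted p = 0.0425) were weak. The Atf4 call was lost without cold beige 1 (0.32) or 2 (0.30) or warm white 4 (0.31), at adjusted p from 0.0692 to 0.0956. It was also lost within the smaller batch (0.26, adjusted p = 0.215), with quantile normalization (adjusted p = 0.125) and without the 20 most abundant genes in the totals (adjusted p = 0.104). The Trib3 call was lost without cold beige 3 (-0.44) or 4 (-0.59) or warm white 2 (-0.57), 3 (-0.58) or 5 (-0.59), at adjusted p from 0.0970 to 0.195, and within the larger batch (-0.52, adjusted p = 0.308). The Shmt2 call (0.42 ± 0.13, adjusted p = 0.00576) was lost within the smaller (0.44, adjusted p = 0.125) and the larger batch (0.39, adjusted p = 0.0864) and without the 20 most abundant genes in the totals (0.30, adjusted p = 0.0605).

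Warm brown differed from warm white in 7 of the 9 genes (3 higher, 4 lower), where 79.0% of all rows differed (40.9% higher, 38.1% lower). Psat1 was 110.5-fold lower in warm brown (-6.79 ± 0.44, adjusted p = 2.16e-12). That fold rests on warm brown levels of 0.38 to 2.03 CPM, and over the alternative fits the difference ran from -7.39 to -4.32. Phgdh was 3.44-fold lower (-1.78 ± 0.31). Atf4 (-0.92 ± 0.14) and Atf5 (-0.88 ± 0.13) were lower as well. Shmt2 was 3.16-fold higher (1.66 ± 0.12), and Psph (0.59 ± 0.10) and Asns (0.41 ± 0.11) were higher.

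Between the depots, 5 of the 9 genes differed in the cold (4 higher in beige, 1 lower), where 61.9% of all rows differed (34.7% higher, 27.2% lower). Psat1, Phgdh, Atf5 and Psph were higher and Asns was lower in cold beige. For Trib3 the difference was -0.56 ± 0.30 (adjusted p = 0.107), and it was called without cold brown 2 (-0.72, adjusted p = 0.0466) or cold beige 2 (-0.74, adjusted p = 0.0493). It was 0.09 within the smaller batch (adjusted p = 0.847) and -1.01 within the larger (adjusted p = 0.0459). After warming 6 of the 9 differed (2 higher in beige, 4 lower), where 75.5% of all rows differed (35.3% higher, 40.1% lower). Warm beige held more Psat1 and Atf4, and less Shmt2 (-1.76 ± 0.14, 3.39-fold lower), Asns (-0.93 ± 0.13), Psph (-0.37 ± 0.11) and Mthfd2 (-1.01 ± 0.37, adjusted p = 0.0175). The Mthfd2 call was lost without warm beige replicate 2 (-0.80, adjusted p = 0.0936), with 1 CPM added (-0.66, adjusted p = 0.0573), with 5 CPM added (-0.28, adjusted p = 0.243) and within the larger batch (-0.77, adjusted p = 0.0955). The Psph call was lost within the larger batch (-0.29, adjusted p = 0.0692) and without the 20 most abundant genes in the totals (-0.22, adjusted p = 0.0653).

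Deviations of single libraries ran through several of the genes at once. Cold brown replicate 4 was above its group mean in all 9 genes and was the highest of its group in 7. Cold brown replicates 1 and 2, of the smaller batch, were above the mean in 2 and 1 of the 9 genes and lowest in 4 each. Cold brown replicates 3 and 5, of the larger batch like replicate 4, were above it in 7 and 3. In warm brown the smaller batch was the higher: replicates 1 and 2 were above the mean in 6 and 8 of the 9 genes. Warm brown replicates 3, 4 and 5, of the larger batch, were above it in 3, 1 and 3. The spread was widest for Psat1, with an SD of 1.24 log2 units in cold brown and 0.96 in warm brown against 0.10 in warm white. Phgdh had an SD of 0.95 and Mthfd2 of 0.91 in cold brown.

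**Figure D3:**
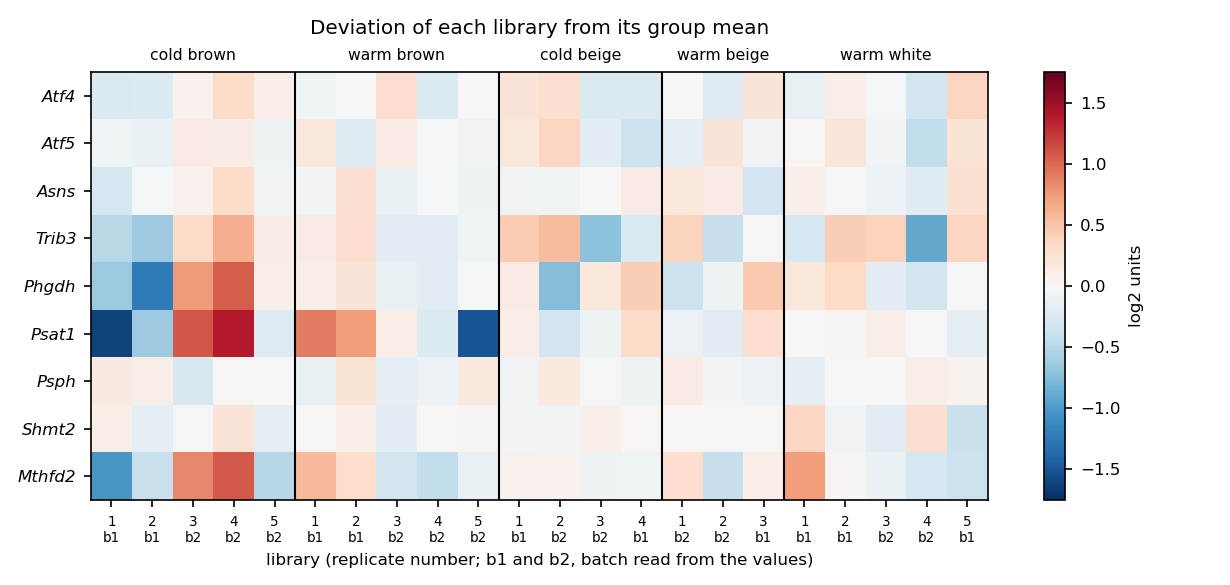
Deviation of each of the 22 libraries (columns, grouped, with replicate number and the batch read from the values) from its group mean, in log2 units, for the 9 genes (rows); red is above and blue below the mean. Cold brown replicates 3 and 4 are red and replicates 1 and 2 blue for Trib3, Phgdh, Psat1 and Mthfd2, and the beige and white columns are paler except for Trib3, Phgdh and a few single squares.

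Other genes of the pathway were counted from lists. On warming 36.0% of all rows rose and 36.9% fell in beige, and 41.2% rose and 30.1% fell in brown. The medians over all rows were 0.03 and 0.13. Of 25 other reported targets of ATF4 or of amino acid shortage, 19 were measured. In beige 7 rose and 7 fell on warming, and in brown 7 rose and 4 fell, with medians of -0.02 and 0.09. The beige counts were near the shares of all rows. Ndrg1, a stress-responsive gene, rose by 4.36 ± 0.49 in beige and 4.50 ± 0.40 in brown. Ddit4, an inhibitor of mTORC1 signalling, rose by 2.18 ± 0.42 in beige, and Atf3, a transcription factor induced by stress, fell by 2.57 ± 0.48 in brown.

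Of 18 amino acid transporters 13 were measured, and 6 rose and 5 fell in beige, against 5 and 4 in brown. Over all rows 36.0% rose and 36.9% fell in beige, against 41.2% and 30.1% in brown. Slc7a2, a carrier of cationic amino acids, rose by 1.99 ± 0.50 in beige and 3.52 ± 0.42 in brown. Slc1a4, a carrier of alanine, serine and cysteine, rose by 2.03 ± 0.28 in beige, and Slc43a1, a carrier of large neutral amino acids, rose by 3.27 ± 0.22 in brown.

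Genes of protein synthesis were counted beside all rows, of which 36.9% fell and 36.0% rose in beige, and 30.1% fell and 41.2% rose in brown. Of 21 genes for cytosolic tRNA charging (with the tRNA exporter Xpot), all measured, 10 fell and 5 rose in beige, and 9 fell and 4 rose in brown. Gars, the glycyl-tRNA synthetase, fell by 1.52 ± 0.11 in beige and by 0.82 ± 0.09 in brown. Wars, the tryptophanyl enzyme, fell by 0.94 ± 0.12 in beige, while Vars, the valyl enzyme, rose by 0.74 ± 0.08 in brown. Of 18 genes for eIF2, its kinases and their regulators, its exchange factor and its phosphatase, 11 fell in each depot. In beige 3 rose, and in brown 2 did. Eif2b1, a subunit of the exchange factor eIF2B, fell by 1.90 ± 0.12 in beige, and Eif2b5, another subunit, fell by 1.03 ± 0.09 in brown. Eif2ak1, an eIF2 kinase, fell by 1.12 ± 0.09 in beige, and Gcn1l1, an activator of another eIF2 kinase, rose by 1.05 ± 0.07 in brown. The medians were -0.46 and -0.28 for the eIF2 list, against 0.03 and 0.13 over all rows.

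**Figure D4:**
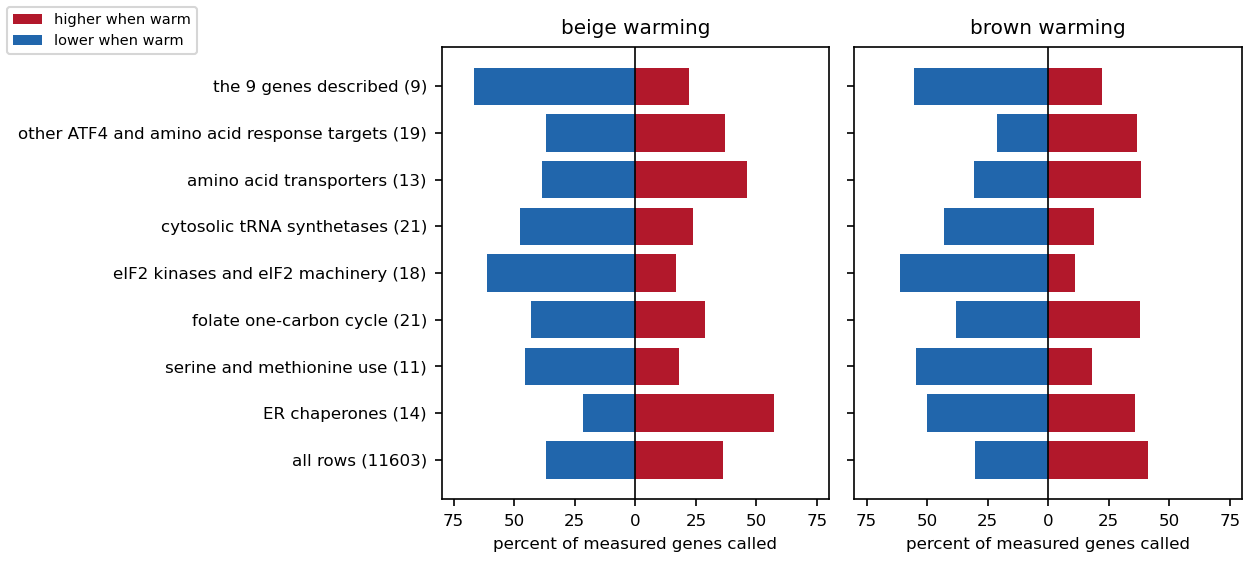
Share of measured genes called on warming in the 9 genes described, in 7 lists of related genes and in all 11603 rows (number of measured genes in brackets), for beige (left) and brown cells (right); the x axis is the percent of measured genes called, red to the right for higher and blue to the left for lower when warm. The eIF2 list has 11 of 18 genes lower in both depots, and the list of ER chaperones has 8 of 14 genes higher in beige and 5 of 14 in brown.

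Over all rows 36.0% were higher and 36.9% lower when warm in beige, and 41.2% higher and 30.1% lower in brown. Of the other genes of the folate cycle 21 of 23 were measured, with 6 higher and 9 lower in beige and 8 higher and 8 lower in brown. Tyms, the thymidylate synthase, fell by 2.15 ± 0.37 in beige and by 2.08 ± 0.30 in brown. Slc46a1, a folate carrier, fell by 2.14 ± 0.13 in beige, and Mtr, the methionine synthase, rose by 1.68 ± 0.07 in brown. Shmt1, the cytosolic counterpart of Shmt2, was singled out after its values were seen: it fell by 2.02 ± 0.20 in beige and rose by 0.99 ± 0.16 in brown. Of 12 genes that use serine or belong to the methionine cycle 11 were measured, with 2 higher and 5 lower in beige and 2 higher and 6 lower in brown. Ptdss2, a phosphatidylserine synthase, fell by 2.09 ± 0.08 in beige. Gnmt, the glycine methyltransferase, fell by 4.54 ± 0.88 in beige and by 5.08 ± 0.73 in brown, where its warm levels were below 1 CPM. Cbs, which condenses serine with homocysteine, fell by 1.33 ± 0.27 in brown.

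Genes of the other stress response that also engages eIF2, that of the endoplasmic reticulum, were counted for comparison. On warming 36.0% of all rows rose and 36.9% fell in beige, and 41.2% rose and 30.1% fell in brown. Of 14 such genes of the reticulum 8 rose and 3 fell in beige, and 5 rose and 7 fell in brown. The effect of warming differed between the depots for 11 of them, with 10 higher and 1 lower in beige, where 14.8% of all rows were higher and 32.4% lower. That balance over all rows depends on the scaling, from 31.3% higher among the calls to 49.7% with quantile normalization. Pdia4, a disulfide isomerase of the reticulum, rose by 2.21 ± 0.14 in beige, and Xbp1, the transcription factor of this response, rose by 1.79 ± 0.18 in beige and 2.01 ± 0.15 in brown. Dnajb9, a co-chaperone, fell by 1.73 ± 0.10 in brown.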

How the data were processed

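The submitters deposited a table of log2 CPM values for 22 mRNA libraries. That the values are logarithms is read from their range (-7.21 to 15.78). The submitters' processing notes list mm10 and the tools HISAT2, Picard, featureCounts and edgeR. The counting annotation and use of strand are not given in the sources used here, so overlapping genes may share reads. Antilogs added up to 0.859 to 1.10 times the nominal total of CPM, and depth could not be recovered. A batch division was read from 11 brown and 2 inguinal rows. These stayed near the floor of the table and took only 2 distinct values across the libraries of their depot. For the marker lists the floor was -5 or less. With it, batch coefficients were at most 0.005 log2 units over all rows, against up to 1.90 when the depots were joined the other way.

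The deposited values of all libraries were fitted at once by limma-trend (limma 3.58.1 in R 4.3.3) with 5 group means alone, which left 17 residual degrees of freedom. Benjamini-Hochberg adjustment covered 11603 rows, and 0.05 was the threshold. The fit was tried on simulated data in which few rows changed, noise was independent and no batch existed. That setting differs from these data, so it does not check the calls made here. The genes and lists were chosen with earlier results of these data known. The text names all 10 genes and, from each list, the 2 called genes with the largest change on warming in each depot that reached 1 log2 CPM. It also names the 3 nearest rows, with a mean of at least 1 log2 CPM, for genes whose group means span at least 2 log2 units. Alternatives were other scalings, 1 or 5 CPM added, a filter of 5 CPM in 3 libraries and only the groups compared. Further ones were blocks by replicate or library number, the batch as a term, fits within batches, and leaving out each library. Leaving out both cold brown libraries with high endothelial markers was chosen after seeing the data. Of the epithelial markers 0 of 6 were measured. The 36 chromatin samples were not used here.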

Additional observations from a re-analysis of the deposited data

Results flagged for a closer look

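The Shmt2 level of warm brown replicate 3 was 4.57 log2 CPM, against 4.77 to 4.85 in the other 4 libraries of its group, a gap wide for the range of the group. It was the only such library in 36 groups of values tested, and chance alone marks about 1 in 20 such groups.

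The effect of warming differed between beige and brown cells for 3 genes by the interaction test in limma. The difference, beige minus brown, was -2.14 log2 units for Phgdh, -0.72 for Psph and -1.67 for Shmt2.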

How the results depend on the processing

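The count of genes called on warming was 8 in beige in every fit that left out 1 library, and 7 to 8 in brown. The count for the difference of warming effects was the least stable: from 3 it went to 5 with median-of-ratios scaling, 6 with quantile normalization, 5 each without the 20 most abundant genes in the totals, with only the groups compared in the fit and within the larger batch, and ran from 3 to 7 without single libraries. In the cold, 5 genes differed between the depots, and 2 did within the smaller batch. The brown change of Psat1 turned to 1.23 within the smaller batch. Of 144 within-batch estimates, 8 had the opposite sign to the pooled one, and this was the 1 of them with an adjusted p under 0.05. The causes were not tested. The scalings moved the median change of all rows by -0.11 (median-of-ratios) and -0.14 (quantile) in brown warming, by 0.22 in beige and 0.13 in brown warming when totals left out the 20 most abundant genes, and by 0.15 and 0.21 in the difference. The share of higher calls among all calls then went from 57.7% to 49.95%, 49.8% and 66.2% in brown warming, from 49.4% to 60.8% in beige warming without the 20 most abundant genes, and from 31.3% to 46.0% and 49.7% in the difference. With a replicate block by title number the counts were 8 in beige, 7 in brown and 4 for the difference, and with a block by library number the difference had 4. In the comparison of cold beige with warm white the replicate block gave 8 and ended the Trib3 call (adjusted p = 0.0813), and in the difference it added Atf5 (adjusted p = 0.0446). The library-number block ended the Mthfd2 call of warm beige against warm brown (adjusted p = 0.0877) and added Trib3 in the difference (1.35, adjusted p = 0.0192) and in the cold comparison (adjusted p = 0.0381). Pairing was looked at through the deviations of libraries from their group means, correlated over all rows. For libraries of the same replicate number these deviations correlated between -0.13 and 0.32. By library number, the deviations of beige and brown libraries of the same temperature correlated between 0.07 and 0.35. Each warm beige library correlated best with its own number. In the cold, beige libraries 1 and 5 did so, and 3 and 4 did not. Between temperatures, no library had its own number as best partner. The match within temperature is a hint from the data, since the labels state no pairing and not every pair was over 0.1. The filter of 5 CPM changed no count. Depth is unknown and limits Psat1, Mthfd2 and Phgdh, which lay near 1 CPM in some groups.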
